A study of Homo sapiens with 8 samples.

Results

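The 40 genes described here are the TRIM (tripartite motif) genes of EndoC-βH5 cells, an established human beta-cell line. They are the protein-coding genes of the deposited expression table whose symbol is TRIM followed by a number, out of 16525 genes (13401 of them protein-coding). The table was limited by the authors to genes above 0.5 CPM (the reads of a gene relative to the library total) in at least 4 samples, so TRIM genes below that level, such as TRIM5, TRIM31 and TRIM38, were not analysed here. RNA was sequenced at 48 h from 4 control cultures without cytokines and from 4 cultures given a mixture of 3 cytokines, with IL-1β at 50 U/mL and IFNγ and TNFα at 1000 U/mL each. All 8 cultures come from a single cell line, and nothing in the labels says that they were separate passages, so the p-values measure the spread between these samples. Each control library shares the first part of its column name with a cytokine library, and the pairs so formed are called A to D.

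TRIM proteins share an N-terminal arrangement of a RING finger, 1 or more B-boxes and a coiled coil. The RING finger recruits a ubiquitin-loaded E2 enzyme, so most TRIM proteins act as E3 ubiquitin ligases, and the C-terminal domain decides what is bound. The family is known for antiviral defence, since many members are induced by interferons and either restrict viruses directly or regulate the RNA and DNA sensors of the cell. Other members act on chromatin (the PHD-bromodomain group), on microtubules (the COS-box group) or on RNA and growth control (the NHL-repeat group).

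Reads on the listed genes numbered 36956294 to 40117636 in control libraries and 36577438 to 39348935 in cytokine libraries, where 1 read equalled 0.0196 to 0.0214 CPM. A count of 0 allows up to 3 reads, or 0.0587 to 0.0641 CPM, and such limits cover counting error only. The beta-cell identity was checked on 10 markers, all of which were listed, with INS and CHGA at means of 2169 and 19221 CPM in control cells. With cytokines 5 of the 10, among them PDX1 and SLC30A8, were called lower and none higher, by the rule given below. The 10 markers had a median log2FC of -0.35, from -2.27 (MAFA) to 0.93. With TMM scaling 4 of the 10 were called lower and 2 higher. Of all genes 17.5% were called lower and 9.52% higher, or 11.6% and 13.1% with TMM scaling. The 10 together made 23932 to 36866 CPM in control and 29094 to 52973 CPM in cytokine libraries, which overlapped. Of 14 markers of other pancreatic and non-endocrine cells, 8 were listed, with a summed level of 568 to 2271 CPM in control and 657 to 2082 CPM in cytokine libraries. Of these 8, 1 was called lower, CPA1 of acinar cells, and none was called higher, beside the same shares of all genes. PRSS1, COL1A2, PTPRC, CD68, PECAM1 and VWF were not analysed here.

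Cytokines changed TRIM genes in both directions. TRIM21, TRIM69, TRIM22, TRIM56, TRIM25 and TRIM14 rose, by 2.07-fold (TRIM14) to 19.5-fold (TRIM21) in mean CPM where control cells had more than a few reads. TRIM29, TRIM16, TRIM59, TRIM9, TRIM65, TRIM2 and TRIM32 fell, by 5.04-fold for TRIM29 and by 1.49-fold to 2.07-fold for the other 6. A gene was called when its log2 fold change (log2FC) on the log2(CPM + 0.1) scale exceeded 0.5 in size at a limma adjusted p below 0.05. In all, 13 of 40 TRIM genes (32.5%) were called, where 27.0% of all 16525 genes were called. The 6 called higher stand against 9.52% of all genes called higher, and the 7 called lower against 17.5% called lower. Without TRIM22, which was listed through its cytokine libraries alone, 12 genes were called and 5 of them were higher. With TMM scaling, described further on, 7 were called higher and 4 lower. The share of calls in the family was thus near that of all genes, and the median log2FC of -0.12 lay near the median of -0.17 over all genes.

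In all 13 called genes every control library lay on the same side of every cytokine library, and all 4 pairs moved in the same direction. Libraries did not overlap in 19 TRIM genes (18 without TRIM22), 8 of them higher with cytokines (10.8% of all genes) and 11 lower (21.9% of all genes). For each of these 19 p was 0.0286 by a 2-sided exact permutation test, the smallest that 4 against 4 libraries allow. Lack of overlap fixes this p-value, so it is no further test of these genes. Across the family 24 genes had a negative log2FC and 16 a positive one, and in 27 genes all 4 pairs agreed in sign.

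**Figure D1:**
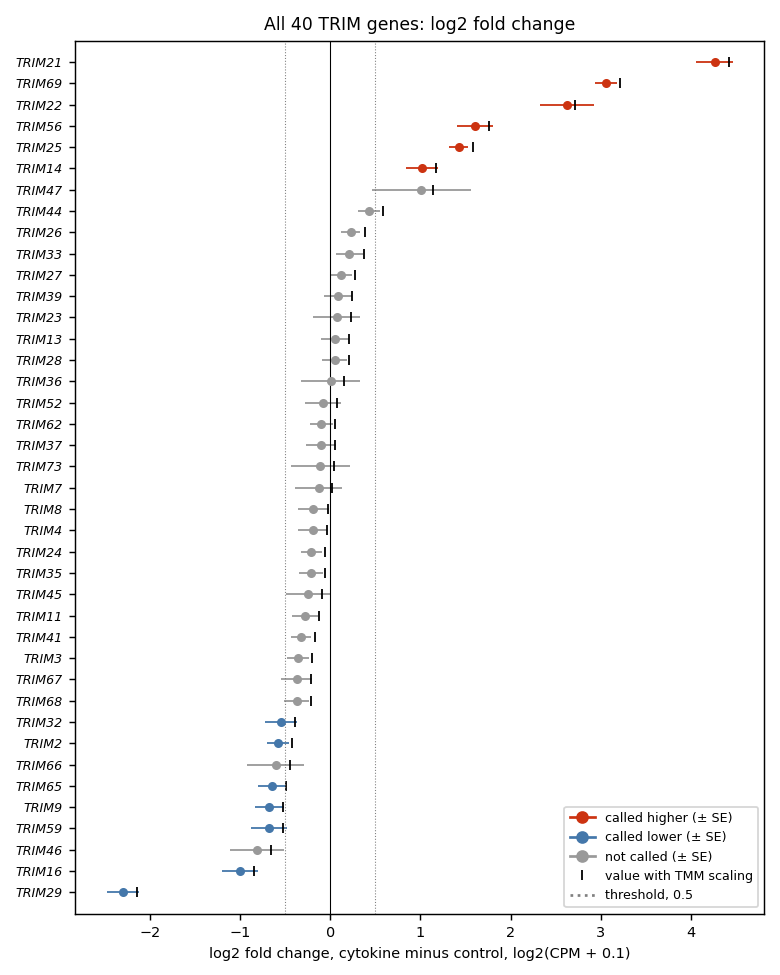
The log2 fold change (cytokine minus control, log2(CPM + 0.1), horizontal axis) of all 40 TRIM genes with its standard error; red and blue points were called higher and lower, grey points were not called, and black ticks give the value with TMM scaling. The 6 genes called higher reach 4.27, the 7 called lower reach -2.31, and the ticks lie to the right of the points.

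Among the genes that rose, TRIM21 had the largest log2FC on the scale used, although TRIM22, with few control reads, had a larger ratio of mean CPM (26.6 against 19.5) and a larger log2FC by edgeR (4.74 against 4.43) and DESeq2 (4.89 against 4.43). TRIM21 is the cytosolic antibody receptor, an E3 ligase that sends antibody-bound pathogens to the proteasome, and is also known as the Ro52 autoantigen. It lies at chr11:4384897-4393696 on the minus strand. Its level was 5.64, 5.00, 3.74 and 3.15 CPM in control libraries A to D and 98.7, 99.7, 72.1 and 70.5 CPM in cytokine libraries A to D. Every cytokine library exceeded every control library by more than 10-fold, and libraries C and D were the lower ones in both groups. The means were 4.38 ± 1.14 and 85.3 ± 16.1 CPM (SD, n = 4), a log2FC of 4.27 with a standard error (SE) of 0.20 (limma adjusted p = 9.83e-08).

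TRIM69, a RING-type ligase that associates with microtubules and restricts some RNA viruses, lies at chr15:44728988-44767829 on the plus strand. It measured 10.2, 12.8, 12.8 and 12.0 CPM in the control libraries and 110, 108, 94.3 and 89.9 CPM in the cytokine libraries. The libraries within each group were close to one another, so that TRIM69 had the smallest adjusted p of the family. The means were 11.9 ± 1.23 and 100.4 ± 9.80 CPM (SD, n = 4; log2FC 3.06, SE 0.13, limma adjusted p = 2.87e-08). B2M, the light chain of MHC class I, ends 10111 bases upstream of TRIM69 on the same strand and rose from 276 ± 41.2 to 4297 ± 365 CPM (SD, n = 4). PATL2, the next gene beyond B2M, rose as well, by 4.31 on the log2 scale (limma adjusted p = 1.24e-05). Whether transcription or reads from these neighbours add to the TRIM69 value was not tested.

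TRIM22, an interferon-induced restriction factor, was at the detection limit in control cells. Its 5 control reads in all came as 0, 1, 3 and 1 in libraries A to D, or 0, 0.0212, 0.0597 and 0.0196 CPM. The cytokine libraries held 0.745, 0.641, 0.523 and 0.764 CPM, 129 reads in all. TRIM22 therefore passed the authors' filter only through its cytokine libraries and had to differ once listed. The ratio of summed reads, scaled to library totals, was 26.1, with an exact 95% interval of 10.9 to 81.7 that covers counting error only, and the log2FC of 2.63 depends on the 0.1 CPM added. These values describe the gene and are no test of it. Even with cytokines TRIM22 remained the lowest of the 40 genes per length, at 0.46 ± 0.09 TPM (the read share per length; SD, n = 4). The gene (chr11:5689689-5737089) shares 10.7% of its exon bases with OR56B1 on the same strand.

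TRIM56 and TRIM25 had the next largest rises. TRIM56, an RNA-binding ligase that takes part in STING and double-stranded RNA signalling (chr7:101085439-101097967), measured 30.4, 27.3, 43.9 and 43.3 CPM in control and 90.2, 88.8, 140 and 120 CPM in cytokine libraries. Pairs C and D had the higher TRIM56 level in both conditions, while the pairs' log2 changes lay between 1.47 and 1.70. Its means were 36.2 ± 8.63 and 109.9 ± 25.0 CPM (SD, n = 4; log2FC 1.60, SE 0.20, limma adjusted p = 0.000179). TRIM25, a ligase known from RIG-I signalling that can also conjugate ISG15 (chr17:56836387-56914080), measured 32.2, 32.7, 35.3 and 36.6 CPM in control and 90.8, 89.9, 87.9 and 98.7 CPM in cytokine libraries. The spread of TRIM25 within each group was small beside the difference between the groups. Its means were 34.2 ± 2.05 and 91.8 ± 4.72 CPM (SD, n = 4; log2FC 1.42, SE 0.10, limma adjusted p = 2.87e-06).

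TRIM14, a mitochondrial adaptor of antiviral signalling that has no RING finger and so is not itself a RING-type ligase, lies at chr9:98069275-98119212. It rose from 11.0, 10.8, 9.52 and 9.37 CPM in control to 23.5, 26.7, 15.9 and 18.2 CPM in cytokine libraries (log2FC 1.02, SE 0.17, limma adjusted p = 0.00141). The cytokine libraries of pairs A and B were higher for TRIM14 than those of C and D, as they were for TRIM21. CORO2A, which lies 1763 bases from TRIM14 on the same strand, fell by 0.71 on the log2 scale (limma adjusted p = 0.0111).

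**Figure D2:**
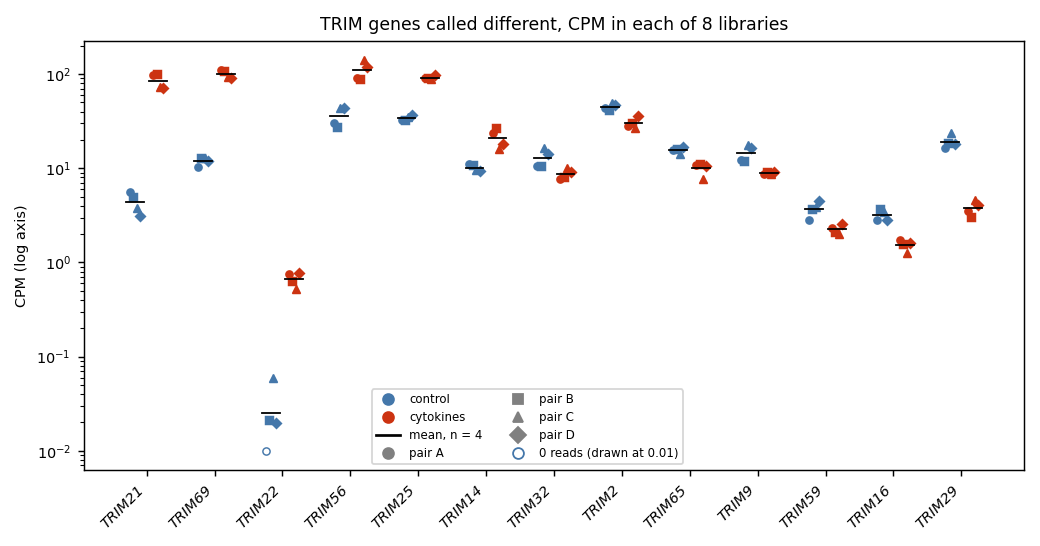
CPM on a log axis of the 13 called TRIM genes in each of 8 libraries; blue symbols are control and red symbols cytokine libraries, the shape gives the pair A to D, black bars are means (n = 4) and the open circle is a library with 0 reads. In none of the 13 genes do the red and blue symbols share a level, and TRIM22 stays below 1 CPM in every library.

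The short windows around the start sites of these genes were searched for the core letters of the interferon-stimulated response element, GAAANNGAAA, on both strands. RefSeq windows (GRCh38.p14) from 250 bases before to 50 bases after a start were at hand for 29 of the 40 genes, 45 windows in all. The letters occurred in 7 of the 29 genes, in 15.6% of the 45 member windows and in 3.57% of all 35116 windows of the table. They were found in 3 of the 5 genes called higher that had a window (TRIM21, TRIM69, TRIM14), in 2 of 6 called lower (TRIM16, TRIM2) and in 2 of 18 not called (TRIM44, TRIM26). The following stretches of 30 bases are shown because they set the same letters side by side in genes that rose, fell or were not called. Each is written 5′ to 3′ on the strand of the gene, with the matched letters in capitals, read forward or as the reverse complement.
TRIM21: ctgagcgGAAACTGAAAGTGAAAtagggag
TRIM69: ctaatgagggTTTCTCTTTCtcttaagcaa
TRIM14: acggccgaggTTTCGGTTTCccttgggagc
TRIM26: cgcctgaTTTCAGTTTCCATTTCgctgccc
TRIM44: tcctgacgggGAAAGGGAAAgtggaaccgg
TRIM16: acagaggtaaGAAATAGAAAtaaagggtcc
TRIM2: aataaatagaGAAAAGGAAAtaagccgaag

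In TRIM21 and TRIM26 a pair of matches overlap, so that 3 copies of the GAAA unit follow one another, and the other 5 genes have a single match. The TRIM21 stretch is chr11:4393663-4393692 on the minus strand, begins its first match at position 18 after the start, and lies in a noncoding part of an exon. The TRIM69 stretch is chr15:44736456-44736485, with its match at position -62, in a noncoding exon part of a longer TRIM69 transcript. The TRIM14 stretch is chr9:98119229-98119258 on the minus strand, with its match at -26, outside the annotated gene. For TRIM26 (chr6:30213578-30213607, minus strand), TRIM44 (chr11:35662730-35662759) and TRIM2 (chr4:153151936-153151965) the matches begin at -194, -35 and -217 and also lie outside the annotated gene, and for TRIM16 (chr17:15683012-15683041, minus strand) the match begins at -80 in an intron. The letters of the gamma-activated site, TTCNNNGAA, occurred in 5 of the 29 genes (TRIM46, TRIM2, TRIM7, TRIM3 and TRIM16), none of them called higher, in 15.6% of the member windows and in 7.66% of all windows. Windows of the same gene can overlap.

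Among the genes that fell, TRIM29 stood apart. TRIM29, an epithelial member without a RING finger that takes part in the DNA damage response (chr11:120111275-120185529, minus strand), measured 16.6, 18.4, 23.8 and 18.2 CPM in control and 3.49, 3.08, 4.61 and 4.08 CPM in cytokine libraries. The lowest TRIM29 control value was more than 3 times the highest cytokine value. Its means were 19.2 ± 3.18 and 3.81 ± 0.67 CPM (SD, n = 4), and it fell by 2.31 on the log2 scale (SE 0.18, limma adjusted p = 4.43e-06).

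TRIM16, a member that assembles autophagy factors at damaged endomembranes, fell from 2.84, 3.68, 3.46 and 2.80 CPM to 1.72, 1.56, 1.27 and 1.63 CPM, 2.07-fold in mean CPM (SE 0.20 on the log2 scale, limma adjusted p = 0.00339). TRIM16L, its near-identical copy annotated as a pseudogene and therefore no member here, fell by 0.83 (limma adjusted p = 0.00813). How reads divide between TRIM16 and TRIM16L is uncertain, and TRIM16 also shares 23.5% of its exon bases with an overlapping coding gene on the same strand.

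The other 5 genes called lower had log2FC values between -0.68 and -0.55. TRIM9, a neuronal COS-box ligase that regulates SNARE-dependent exocytosis, measured 12.3, 11.9, 17.7 and 16.6 CPM in control and 8.69, 9.23, 8.74 and 9.14 CPM in cytokine libraries (log2FC -0.68, SE 0.16, limma adjusted p = 0.00906). The cytokine libraries of TRIM9 were nearly level, and the difference was larger in pairs C and D, whose control values were higher. TRIM65, which ubiquitinates the RNA sensor MDA5 (encoded by IFIH1), measured 15.7, 16.1, 14.3 and 16.7 CPM in control and 10.8, 11.2, 7.63 and 10.5 CPM in cytokine libraries (log2FC -0.65, SE 0.15, limma adjusted p = 0.00860). TRIM2, an NHL-repeat ligase known from neurons, measured 43.4, 41.3, 49.2 and 46.7 CPM in control and 28.2, 30.3, 26.8 and 35.6 CPM in cytokine libraries (log2FC -0.58, SE 0.12, limma adjusted p = 0.00517). In both genes cytokine library C was the lowest.

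TRIM59, a membrane-anchored member of the endoplasmic reticulum linked to proliferation, measured 2.80, 3.66, 3.88 and 4.54 CPM in control and 2.34, 2.11, 2.01 and 2.55 CPM in cytokine libraries (log2FC -0.68, SE 0.20, limma adjusted p = 0.0247). TRIM32, an NHL-repeat ligase mutated in a limb-girdle muscular dystrophy, measured 10.6, 10.7, 16.3 and 14.2 CPM in control and 7.66, 8.01, 10.1 and 9.04 CPM in cytokine libraries (log2FC -0.55, SE 0.18, limma adjusted p = 0.0366). For both the gap between the groups was narrow, and leaving out single libraries lost the call in 6 of 8 fits for TRIM59 and in 5 of 8 for TRIM32. TRIM59 shares 19.8% of its exon bases with SMC4 on the opposite strand.

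The calls of moderate falls also depended on how the libraries were scaled. The median gene had a log2FC of -0.17, and with TMM scaling, which sets the bulk of genes close to no change (median -0.01), 7 TRIM genes were called higher (13.1% of all genes) and 4 lower (11.6% of all genes). TRIM2, TRIM32 and TRIM65 were no longer called, at -0.43, -0.39 and -0.50, whereas TRIM29, TRIM16, TRIM59 and TRIM9 still were. TRIM44, which lacks a RING finger and stabilises other TRIM proteins, entered the genes called higher with TMM scaling, at 0.59 (limma adjusted p = 0.00143). Its CPM were 101.7, 104, 134 and 115 in control and 146, 150.1, 167 and 147 in cytokine libraries, without overlap, and without TMM scaling its log2FC of 0.43 (SE 0.12, limma adjusted p = 0.0201) was the one nearest below the threshold.

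When the pairs A to D entered the limma fit as a replicate block, 7 TRIM genes were called higher (11.6% of all genes) and 9 lower (23.8% of all genes), among them all 13 of the unblocked fit. The genes gained were TRIM46, TRIM66 and TRIM47, in each of which the control libraries differed widely. Of these TRIM46 was also called by edgeR with TMM scaling and the block, and TRIM66 and TRIM47 were not. TRIM46, a COS-box protein that bundles microtubules at the axon initial segment (chr1:155173787-155184971), measured 135, 111, 57.0 and 77.2 CPM in control and 66.6, 66.7, 31.1 and 49.8 CPM in cytokine libraries. TRIM46 fell in each of the 4 pairs, by 0.63 to 1.02 on the log2 scale, although cytokine libraries A and B lay above control library C. Its limma adjusted p was 0.0597 without and 3.45e-07 with the block, for a log2FC of -0.81.

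TRIM66, a PHD-bromodomain protein related to TRIM28, measured 19.9, 16.9, 8.78 and 17.9 CPM in control and 10.9, 12.8, 5.38 and 12.96 CPM in cytokine libraries (log2FC -0.61, limma adjusted p = 0.175 without and 0.000226 with the block). Pair C was the lowest for TRIM66 in both conditions, and each pair fell. TRIM47, a RING-type ligase, was at a low level, with 0, 0.656, 0.378 and 0.332 CPM in control and 0.405, 0.555, 0.866 and 0.703 CPM in cytokine libraries (log2FC 1.01, limma adjusted p = 0.193 without and 0.0328 with the block). Pair B went against the other pairs for TRIM47, its value rests on a control library with 0 reads, and 51.5% of its exon bases lie opposite an antisense gene.

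**Figure D3:**
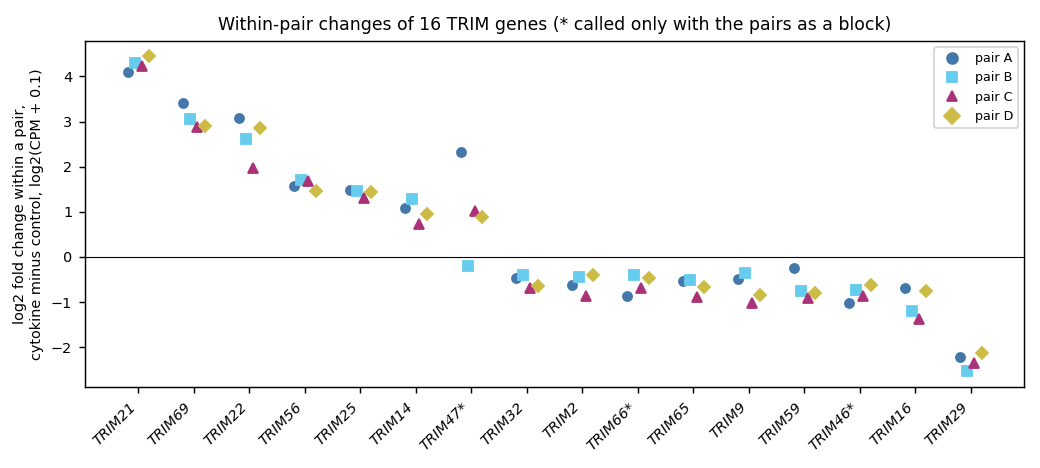
The log2 fold change within each pair of libraries (cytokine minus control, log2(CPM + 0.1), vertical axis) for the 16 TRIM genes called with the pairs as a block; each symbol is a pair A to D, and asterisks mark TRIM46, TRIM66 and TRIM47, which were not called without the block. In 15 of the 16 genes the 4 symbols lie on the same side of 0, and in TRIM47 pair B lies below 0.

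The calls were also counted by C-terminal class, with no test between the classes, beside 9.52% of all genes called higher and 17.5% called lower. Each gene was placed in a single class, so a class count is not a count of all genes that carry a domain. The PRY-SPRY class, named for the substrate-binding fold of most antiviral TRIM proteins, held 18 genes with a median log2FC of -0.01. Of these, 5 were called higher (TRIM21, TRIM69, TRIM22, TRIM25, TRIM14) and 2 lower (TRIM16, TRIM65). Without TRIM22 it was 4 of 17 called higher. Of the 4 COS-box genes 1 was called, TRIM9, lower, and the median was -0.53, with TRIM46 lower with the block as given above. Of the 4 genes grouped with the NHL-repeat proteins TRIM56 was called higher and TRIM2 and TRIM32 lower (median -0.46). Of the 10 genes of other architecture none was called higher and 2 were called lower, TRIM29 and TRIM59 (median -0.11).

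None of the 4 PHD-bromodomain genes, TRIM24, TRIM28, TRIM33 and TRIM66, was called by limma, edgeR or DESeq2, without the pairs as a block, and none had an unadjusted limma p below 0.05. With the block limma called TRIM66 lower, as given above. TRIM28 (KAP1), the corepressor that KRAB zinc finger proteins bring to retroelements, held 21.6% of all TRIM CPM of control cells. It measured 296, 278, 263 and 230 CPM in control and 294, 284, 301 and 226 CPM in cytokine libraries. The groups overlapped over almost their whole range, and the log2FC was 0.05 (SE 0.14, limma adjusted p = 0.826).

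The list of TRIM genes known for antiviral or interferon-linked roles named 12 genes, of which 7 were among the 40. The others were not listed after the authors' filter, which asked for 0.5 CPM in at least 4 samples. Of the 7 genes, 6 were those called higher, and the 7 had a median log2FC of 1.60. The list was drawn up with earlier results of these data known, so its count is a description, to be read beside the 9.52% of all genes called higher. Without TRIM22 it was 5 of 6, with a median of 1.51. The seventh, TRIM26, an MHC-region gene that regulates IRF3 and NEMO, measured 46.0, 42.3, 48.2 and 46.2 CPM in control and 51.8, 53.6, 56.9 and 51.2 CPM in cytokine libraries. TRIM26 was higher in all 4 pairs without overlap, but its log2FC of 0.22 (SE 0.10, limma adjusted p = 0.122) was not called. The list left out TRIM65 (log2FC -0.65, called lower) and TRIM41 (log2FC -0.33, not called), which act on MDA5 and on an influenza protein. The list therefore does not split the family by antiviral role. Among the 33 TRIM genes outside the list none was called higher by limma, and their median was -0.21. Of these 33, 7 (21.2%) were called lower, near the 17.5% of all genes. With TMM scaling 1 was called higher and 4 lower, with a median of -0.06. At an unadjusted limma p below 0.05 there were 12 of these 33, where 42.0% of all genes passed. edgeR and DESeq2 each called 5 of the 33, including TRIM44 higher, and called 24.5% and 27.2% of all genes.

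The CPM of these lists were also summed. The CPM of all 40 TRIM genes summed to 1232 ± 33.7 in control and 1466 ± 48.7 in cytokine libraries (SD, n = 4). The 7 antiviral and interferon-linked genes together made 131 to 153 CPM in control and 450 to 468 CPM in cytokine libraries. The other 33 genes together made 1042 to 1121 CPM in control and 947 to 1035 CPM in cytokine libraries. The sums did not overlap between the groups in any of the 3 cases. The log2 ratio of the last sum, -0.12, is smaller in size than the difference between the medians of all genes without and with TMM scaling (-0.17 and -0.01), so its direction rests on the scaling.

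Per length, the order of the family changed with cytokines. In control cells TRIM28 was highest at 251 ± 18.7 TPM, followed by TRIM46 at 77.6 ± 19.5, TRIM26 at 40.2 ± 7.27 and TRIM44 at 33.8 ± 8.60 TPM (SD, n = 4). TRIM26 and TRIM44 lay within the spread of each other. TRIM21 was in place 23 of 40 at 8.48 ± 1.14 TPM. With cytokines TRIM28 remained highest at 282 ± 34.3 TPM and TRIM21 came next at 181 ± 13.4 TPM, followed by TRIM26 at 50.7 ± 6.76, TRIM44 at 48.6 ± 7.48, TRIM46 at 48.0 ± 11.7, TRIM69 at 44.6 ± 0.97, TRIM56 at 41.6 ± 13.7 and TRIM25 at 40.2 ± 6.20 TPM. From TRIM26 to TRIM25, neighbours in this order did not differ beyond the spread between libraries. TRIM69 had moved there from place 32, TRIM56 from 20 and TRIM25 from 18, and TRIM29 had moved from place 25 to 35.

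**Figure D4:**
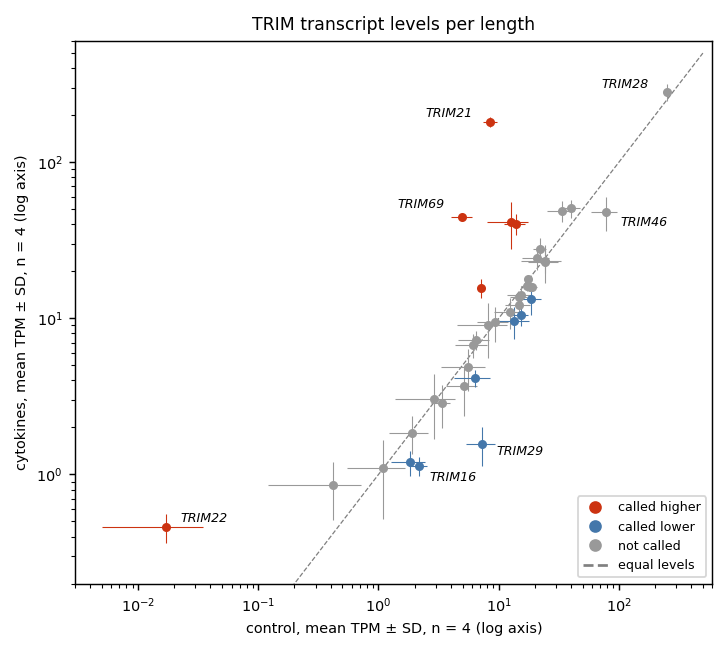
Mean TPM with SD (n = 4) of each TRIM gene in control (horizontal) and cytokine-treated cells (vertical), both on log axes, with the dashed line at equal levels; colours give the call, and for TRIM22, whose SD exceeds its control mean, the bar is cut at the low end. TRIM28 keeps the highest level near the line, and TRIM21 lies far above it, at 181 TPM against 8.48 TPM.

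A further 4 genes were lower in every cytokine library without passing the fold threshold. TRIM41, which acts on the nucleoprotein of influenza virus among other targets, was at 59.6 to 62.7 CPM in control and 44.8 to 54.1 CPM in cytokine libraries (log2FC -0.33, limma adjusted p = 0.0407). TRIM3, an NHL-repeat ligase of the brain, was at 31.2 to 35.6 CPM against 22.9 to 28.5 CPM (log2FC -0.36, limma adjusted p = 0.0397). TRIM68 and TRIM35, both with a PRY-SPRY domain, had log2FC values of -0.38 and -0.21 (limma adjusted p = 0.0573 and 0.236). With TMM scaling the values of TRIM41, TRIM3, TRIM68 and TRIM35 were -0.17, -0.20, -0.22 and -0.06. Their limma adjusted p-values were then 0.203 or more, so these falls depended on the scaling. The remaining 17 members had log2FC values from -0.38 to 0.21, mean levels from 1.55 to 55.1 CPM in control cells and limma adjusted p-values of 0.128 or more.

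Some TRIM genes that lie close together differed in direction and others did not. TRIM21, TRIM22, TRIM68, TRIM3 and TRIM66 all lie within the first 8682694 bases of chromosome 11. There TRIM21 and TRIM22 rose, and the other 3 had negative values but were not called without the pairs as a block. TRIM21 and TRIM68 are neighbours among the listed protein-coding genes, 204976 bases apart, with log2FC values of 4.27 and -0.38. TRIM65 and TRIM47 lie next to each other on chromosome 17 with values of -0.65 and 1.01. TRIM47 was not called (limma adjusted p = 0.193), and without control library A its value was 0.40. TRIM7, TRIM41 and TRIM52, which lie together on chromosome 5, had values of -0.13, -0.33 and -0.09, and TRIM26, TRIM27 and TRIM39 on chromosome 6 had values of 0.22, 0.12 and 0.08. With TMM scaling TRIM7 and TRIM52 had positive values, 0.02 and 0.07.

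The genes that TRIM proteins work with were described by lists, whose counts stand beside 9.52% of all genes called higher and 17.5% called lower. Of 4 TRIM-family genes that carry other names, PML, the scaffold of nuclear bodies, rose from 59.2 ± 13.1 to 233 ± 49.6 CPM (SD, n = 4; log2FC 1.98, limma adjusted p = 2.54e-05). MID1, a microtubule-bound COS-box ligase, rose from 10.4 ± 1.19 to 25.3 ± 2.53 CPM (log2FC 1.27), RNF207 fell from 18.0 ± 3.37 to 8.43 ± 2.75 CPM (log2FC -1.14), and MID2, a paralogue of MID1, was not called at 0.33. Of 8 partners in PML bodies, SP110 and SP100 were called higher. Both exceeded 0.5 CPM in no control library, so they were listed through their cytokine libraries and had to differ. SP100 had 3 control reads in all and a ratio of summed reads of 149.7 (exact 95% interval 50.9 to 728, counting error only). SP110, with 12 control reads, all of them in library D, had a mean of 25.8 ± 2.57 CPM with cytokines (SD, n = 4). The other 6 partners were not called, although with TMM scaling 3 of the 8 partners were called higher.

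Of 19 E1 and E2 enzymes, which load the ubiquitin that TRIM ligases transfer, 16 were not called, and the median log2FC was -0.01. The 3 called higher were UBE2L6 (5.92 ± 1.27 to 423 ± 42.5 CPM, log2FC 6.15) and UBA7 (3.97 ± 1.23 to 84.4 ± 22.7 CPM, log2FC 4.39), the E2 and E1 of ISG15, and UBA6 (28.8 ± 6.79 to 73.5 ± 16.2 CPM, log2FC 1.35), an alternative ubiquitin E1 (SD, n = 4; limma adjusted p at most 0.000405). Of 10 genes on the pathway of TRIM25 and RIG-I, 8 were called higher, led by ISG15 (log2FC 4.80), IFIH1 (3.17) and DDX58, which encodes RIG-I (1.71). The median log2FC of the 10 was 0.64, and 6 of them were higher without overlap (10.8% of all genes). RNF135, another ligase known to act on RIG-I, fell by 0.88 on the log2 scale, from 5.51 ± 1.16 to 2.92 ± 0.44 CPM (SD, n = 4; limma adjusted p = 0.00763).

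Of 12 corepressor partners of TRIM28, 1 was called, CBX5, which encodes heterochromatin protein HP1α, and it fell by 0.64 on the log2 scale (limma adjusted p = 0.00156). With TMM scaling CBX5 was not called, and 1 other partner was called higher. Of 9 genes of interferon-gamma signalling 6 were called higher, with IRF1 (6.03) and SOCS1 (5.62) the largest in log2FC.

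**Figure D5:**
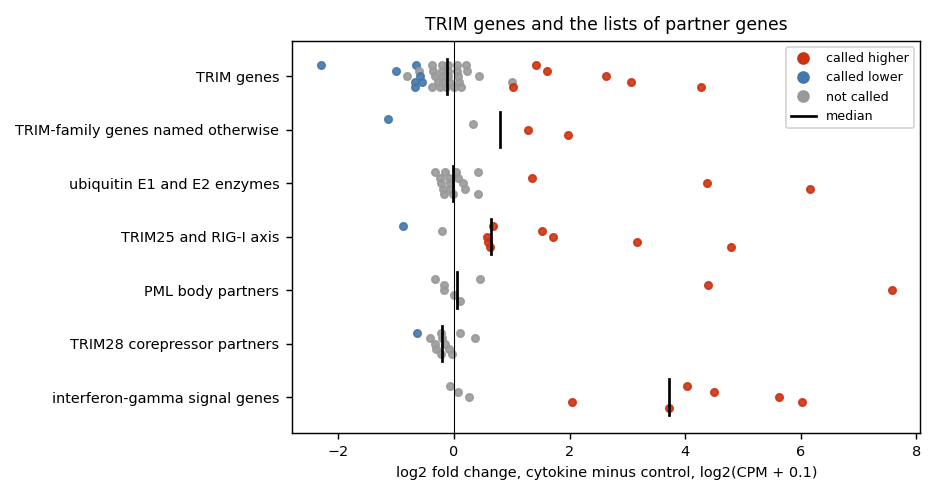
The log2 fold change (cytokine minus control, log2(CPM + 0.1), horizontal axis) of the TRIM genes and of 6 lists of partner genes; each point is a gene, coloured by its call and spread vertically for visibility only, and the black bar is the median of the list. The TRIM genes centre at -0.12 and the E1 and E2 enzymes at -0.01, and the 9 interferon-gamma signalling genes have a median of 3.72.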

How the data were processed

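RNA of 4 control and 4 cytokine-treated EndoC-βH5 cultures was sequenced as strand-specific, paired-end libraries. According to the methods, reads were aligned to GRCh38 with TopHat 2.1.1, counted on genes with htseq-count 0.9.1 and kept above 0.5 CPM in at least 4 samples, and the authors deposited CPM values, reads scaled to the library total. A further 4 columns of values were not used. Divided by what 1 read is worth, 100% of the values came out whole (tolerance 0.1 read), which recovered the reads, on which edgeR called 4054 of the 16525 genes. Column names give no replicate number. Libraries that share the first part of their name (A to D) deviated together from their group means (r = 0.57 to 0.80 across genes), although A and B were not told apart by this, and were used as a replicate block. No library is a copy of another of its group (chi-square per gene of 5.89 or more). Libraries A and B were by far the closest, at 13.3 in control and 5.89 in cytokine libraries. The other comparisons within a group gave 66.6 to 294.

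CPM were tested as log2(CPM + 0.1) by limma 3.58.1 (R 4.3.3), with an intensity trend, Benjamini-Hochberg adjustment over the 16525 genes and the thresholds of the study (log2FC above 0.5 in size, FDR below 0.05). edgeR 4.0.16, DESeq2 1.42.0, TMM scaling, median-of-ratios scaling, pseudocounts of 0.5 and 1, a filter at a mean of 1 CPM and no intensity trend were alternatives. So were the block, a term that set pairs A and B apart from C and D by column name, and leaving out each library. Leaving out members above 0.5 CPM in no control library was added after seeing the data. The scripts were tested on simulated data. TPM and coordinates used GENCODE 29, in which all 40 members had an entry. Python 3.11.15, pandas 2.3.3, numpy 2.4.6, scipy 1.17.1 and matplotlib 3.10.9 were used. The members and lists were chosen with earlier results of these data known. Genes were named where called, without overlap between groups, among the 5 highest in CPM, or changed in call by TMM scaling or the block. The called gene nearest the threshold and the uncalled gene with the largest log2FC in size were also named. So were up to 3 called genes per partner list by size of change. TRIM7 is named for a sequence match. RNF135, MID2, CPA1, the beta-cell markers, members placed by class or position and genes beside a named member were named after their values were seen. Some genes of the partner and marker lists are not reported here.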

Additional observations from a re-analysis of the deposited data

Results flagged for a closer look

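Of 80 groups of 4 libraries (40 TRIM genes in 2 conditions), 3 held a library whose gap to the others exceeded Dixon's critical value for 4 samples; chance marks about 1 in 20. TRIM33 was low in cytokine library C, at 47.0 CPM against 68.4 to 72.6 CPM in the other cytokine libraries. TRIM11 was high in cytokine library C, at 27.4 CPM against 20.3 to 21.3 CPM. TRIM73 was high in cytokine library D, at 2.31 CPM against 1.09 to 1.15 CPM. None of the 3 genes was called. For no TRIM gene did the cytokine effect differ between pairs A and B and pairs C and D at a limma adjusted p below 0.05, a difference that 5 of all genes showed.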

How the results depend on the processing

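The number of TRIM genes called lower, 7, was 4 with TMM scaling, with median-of-ratios scaling, with edgeR and with DESeq2. The numbers called in all (13) and called higher (6) stayed within 1.5 times under every alternative run, and leaving out a library gave 11 to 14 calls. With the pairs as a replicate block 16 genes were called, 7 higher and 9 lower. With edgeR, TMM scaling and the block 12 were called, 7 higher and 5 lower. For this last fit, for median-of-ratios scaling and for the fits without a library, the share of all genes is not given here. Their counts therefore do not set the family beside all genes. TRIM46 was called by both blocked fits, whereas TRIM66 (-0.46) and TRIM47 (adjusted p = 0.0562, edgeR) were called by limma with the block only. The log2FC of TRIM28, which was not called, ranged from -0.022 (without control library D) to 0.14 when a library was left out, and was the only value to change sign among the 23 genes recomputed one by one. Of 435 comparisons of 23 named genes with 19 alternative settings, 395 kept direction and call, 26 lost the call and 13 gained it. Among all 40 members 9 changed sign under at least 1 alternative, 5 of them with TMM scaling (TRIM7 and TRIM73 among these), and none of the 9 was called. Without TRIM22, 12 were called, an alternative added after seeing the data. With the filter at a mean of 1 CPM, TRIM22 and TRIM47 were not tested. Depth limits TRIM22, whose control libraries held few or no reads. TRIM47 had 0, 31, 19 and 17 reads in control libraries A to D, so only library A was without reads.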
